A study of Rattus norvegicus with 10 samples.

Results

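The interleukin 1 family of 9 genes was followed in nasal epithelium of rats given N,N-dimethyl-p-toluidine (DMPT). The genes were 4 agonists (Il1a, Il1b, Il18, Il33), the receptor antagonist Il1rn, and 4 receptor genes (Il1r1, Il1r2, Il1rap, Il1rl1). They were chosen by symbol: each probe set whose only gene symbol in the platform annotation was one of these names was taken. This gave 15 of 31042 probe sets and 9 of 14217 genes, and all 9 were measured. DMPT is an aromatic amine that speeds the setting of acrylic cements. The animals were males of the F344/N strain aged 5 to 6 weeks. DMPT was given in corn oil by gavage at 120 mg/kg/day on 5 consecutive days, and the controls were given the corn oil vehicle. Transitional epithelium of the nasal cavity was cut out by laser capture microdissection, its RNA was amplified, and 5 DMPT and 5 vehicle arrays were made, 1 per numbered animal.

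Interleukin 1 alpha and beta are cytokines that bind the receptor encoded by Il1r1, which then recruits the accessory chain encoded by Il1rap and signals through MyD88 and IRAK kinases to NF-kappaB. The antagonist encoded by Il1rn occupies the same receptor without recruiting the accessory chain, and Il1r2 encodes a decoy that binds ligand without signalling. Il18 and Il33 encode agonists of related receptors, Il1rl1 being the receptor for interleukin 33. In surface epithelium, interleukin 1 alpha, 18 and 33 can be stored in resting cells and released on injury.

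The deposited values were log2 expression per probe set, on which a difference of 1 is a 2-fold change. A probe set's brightness depends on its own probes, so levels were compared between groups and not between genes. A gene was represented by its brightest probe set, and "called" means an adjusted p of at most 0.05 by limma over all probe sets tested. Vehicle replicate 2 lay apart from the other arrays, with a mean correlation of 0.975 with its group against 0.985 to 0.986 for the other vehicle arrays and 0.989 to 0.991 for the DMPT arrays. A ratio of RNA quality, the 3' minus 5' signal of 2 control transcripts, ran from 1.17 to 1.5 with vehicle and from 0.873 to 1.3 after DMPT. The probe sets of the epithelial genes Epcam and Krt18 were brighter than 99.4% and 99.5% of all, which is given as a sign of detection and not of amount. Those of 9 fibroblast markers were brighter than 39.7% (Thy1) to 99% (Col1a1), and those of the T cell genes Cd3e and Cd3g than 16.6% and 80.7%. The probe set of the club cell marker Scgb1a1 was brighter than 20.5% and may be near background. In captured tissue, more cells of a type and more RNA per cell cannot be told apart.

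Upstream sequences of the 3 called members are shown because these genes moved in different directions. The sequences are the 250 bases before the transcription start in RefSeq, build GRCr8, on the gene's own strand. Il1rn lies at chr3:27520072-27520321 (+), Il18 at chr8:59801822-59802071 (+) and Il1r1 at chr9:50034133-50034382 (+). Capitals mark a match to TGANNNNGC, a loose pattern searched here for the antioxidant response element. It allows any base after TGA, so a match need not fit a stricter form of the element.
Il1rn: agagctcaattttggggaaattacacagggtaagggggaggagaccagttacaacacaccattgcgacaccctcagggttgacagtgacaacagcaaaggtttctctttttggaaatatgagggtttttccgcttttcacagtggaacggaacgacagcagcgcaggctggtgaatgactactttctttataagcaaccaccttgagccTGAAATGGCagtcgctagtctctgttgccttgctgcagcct
Il18: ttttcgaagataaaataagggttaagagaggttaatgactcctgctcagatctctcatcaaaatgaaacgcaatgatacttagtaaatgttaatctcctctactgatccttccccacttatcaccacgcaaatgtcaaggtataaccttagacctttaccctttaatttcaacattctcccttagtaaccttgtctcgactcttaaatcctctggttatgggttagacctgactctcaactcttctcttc
Il1r1: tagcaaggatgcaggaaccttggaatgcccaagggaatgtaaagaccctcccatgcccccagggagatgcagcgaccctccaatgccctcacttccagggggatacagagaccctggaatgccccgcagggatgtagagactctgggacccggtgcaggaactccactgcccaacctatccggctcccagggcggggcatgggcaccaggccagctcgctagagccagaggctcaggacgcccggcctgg
The match in Il1rn, TGAAATGGC, spans bases 41 to 33 before the start. Such a match was found on either strand in 34.7% of the 33469 upstream windows in the table, so it is common. Of the members, 8 had an entry, with 10 windows in all, and the other one with this motif was Il1rl1. The AP-1 motif TGANTCA occurred in 6.34% of all windows and, among the members, in Il1a, as TGACTCA at bases 12 to 6 before the start. The NF-kappaB motif, GGGA and TTCC with any 2 bases between, occurred in 1.08% of all windows and in 0 of the members' windows. No match overlapped another. A match describes letters and does not show that a factor binds.

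After DMPT the antagonist Il1rn and the agonist Il18 were higher, the signalling receptor Il1r1 was lower, and the other 6 members did not pass the test. That is 2 members higher and 1 lower of 9, where 13.9% of all genes (11.1% of probe sets) were called in either direction, 7.13% higher and 6.77% lower. The groups did not overlap for 13.9% of all genes. The median difference of the 9 was -0.04, and that of all genes was -0.01. The rises of Il1rn and Il18 had been described in earlier results of these data and are no independent support for the choice of members.

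**Figure D1:**
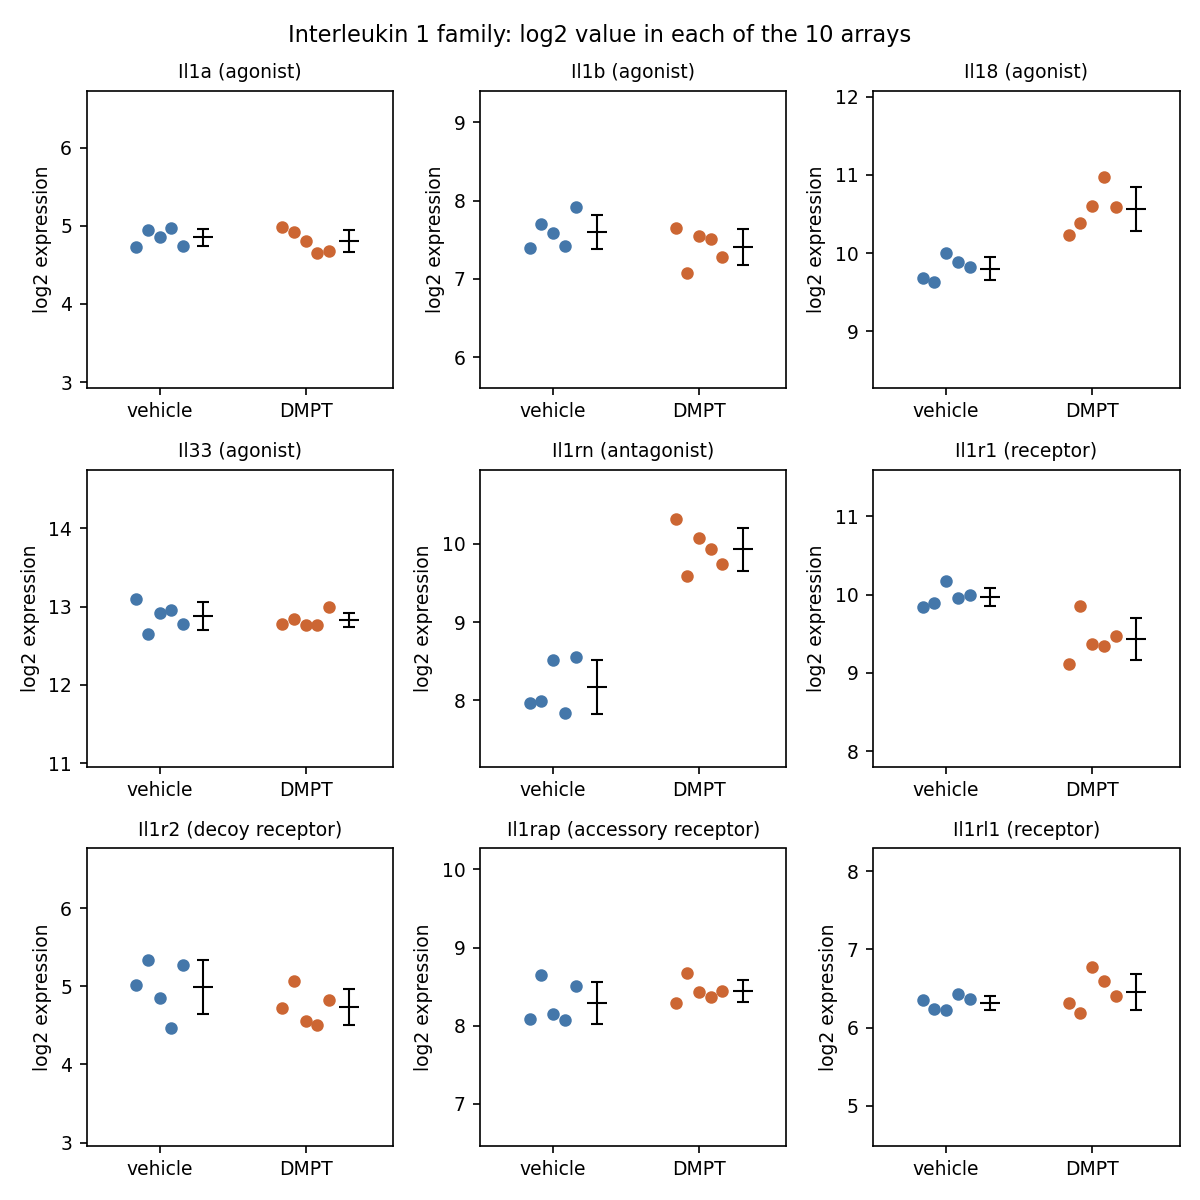
Log2 expression of the brightest probe set of each of the 9 members in every array (vertical axis, all panels spanning the same range), with vehicle and DMPT arrays side by side and the mean ± SD beside them. The 5 DMPT arrays lie above the 5 vehicle arrays for Il1rn (9.59 to 10.32 against 7.84 to 8.55) and Il18 (10.23 to 10.97 against 9.63 to 10.00), and the groups overlap in the other 7 panels.

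The antagonist gene Il1rn had the widest change of the family. Its log2 values with vehicle were 7.96, 7.99, 8.52, 7.84 and 8.55 in replicates 1 to 5, and after DMPT they were 10.32, 9.59, 10.07, 9.94 and 9.74. Every DMPT array was above every vehicle array. The means were 8.17 ± 0.34 and 9.93 ± 0.28 (SD, n = 5 each), a difference of 1.76 ± 0.18 (SE; 95% interval 1.37 to 2.15), or 3.39-fold. The adjusted p was 0.000133, and the rise was at rank 53 among 14217 genes. Without vehicle replicate 2 the difference was 1.71 (adjusted p = 0.000373), and over the omission of each array in turn it lay between 1.66 and 1.86. The gene has 1 probe set, and forms of the antagonist that are secreted or kept in the cell were not separated here.

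Among the agonists, Il18 rose. Interleukin 18 is made as an inactive precursor that caspase 1 cuts. Its log2 values were 9.68, 9.63, 10.00, 9.88 and 9.82 with vehicle and 10.23, 10.39, 10.60, 10.97 and 10.59 after DMPT. The groups did not overlap. The difference was 0.75 ± 0.14 (95% interval 0.45 to 1.05), or 1.68-fold, with an adjusted p of 0.00501. It was 0.71 without vehicle replicate 2 and between 0.65 and 0.83 over all omissions of 1 array, with adjusted p at most 0.0164.

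Il33, an alarmin held in the nucleus of epithelial and endothelial cells, was well clear of the dim end of the array, its probe set being brighter than 98.3% of all. Its values were 13.10, 12.65, 12.92, 12.96 and 12.78 with vehicle and 12.78, 12.84, 12.76, 12.76 and 12.99 after DMPT. The DMPT arrays fell within the vehicle range, and the difference was -0.06 ± 0.10 (95% interval -0.28 to 0.17; adjusted p = 0.8). A second Il33 probe set differed by -0.20 ± 0.10 (adjusted p = 0.259), with 4 of 5 DMPT arrays below all vehicle arrays. It did not pass either.

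The 2 classical agonists did not pass the test. Il1b had values of 7.39, 7.70, 7.58, 7.42 and 7.92 with vehicle and 7.65, 7.08, 7.55, 7.51 and 7.28 after DMPT. The groups overlapped, with a difference of -0.19 ± 0.14 (95% interval -0.48 to 0.11; adjusted p = 0.459). Il1a was near the bottom of the array's range, brighter than 8.5% of probe sets, with values of 4.73 to 4.97 with vehicle and 4.65 to 4.98 after DMPT. At that brightness a change may be compressed or missed, and its difference of -0.04 ± 0.10 (adjusted p = 0.855) therefore says little about Il1a. Its other probe set was as dim and differed by -0.13 ± 0.10 (adjusted p = 0.468).

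**Figure D2:**
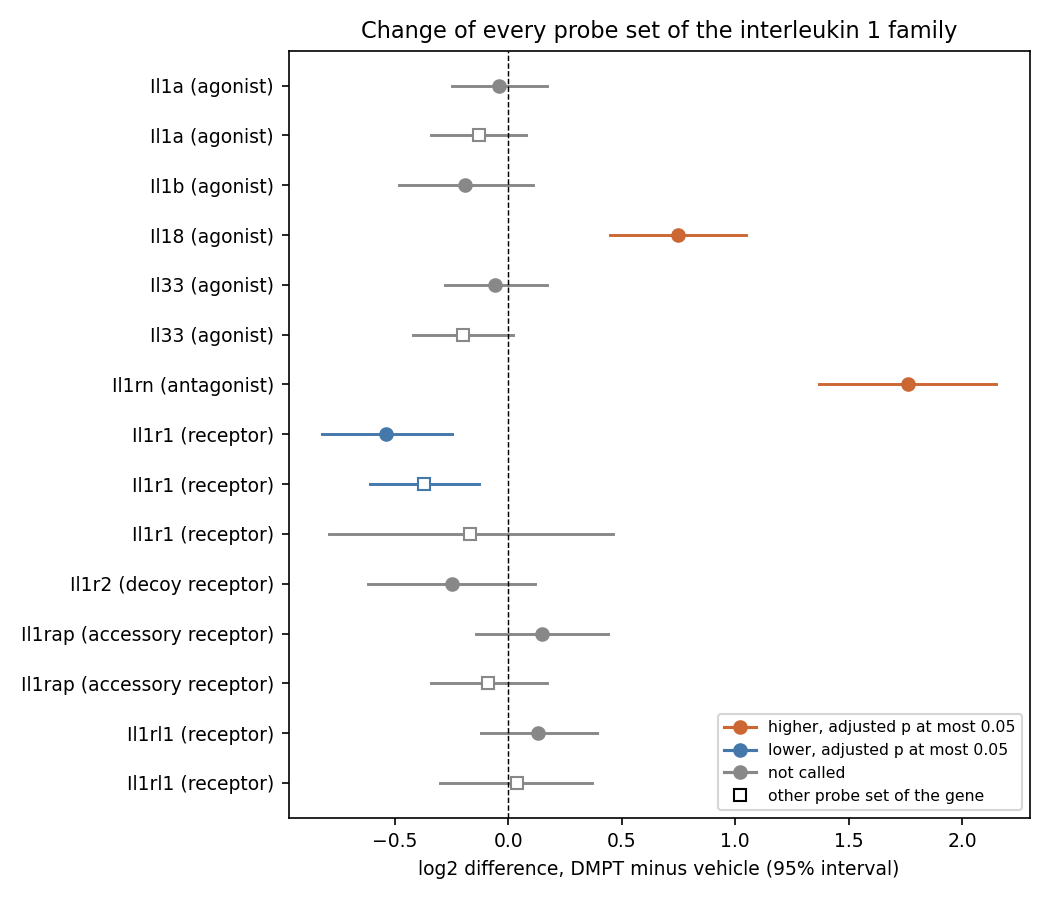
Log2 difference, DMPT minus vehicle, with its 95% interval from limma (horizontal axis) for all 15 probe sets of the family, grouped by gene; filled circles are the brightest probe set of a gene and open squares the others. Il1rn (1.76) and Il18 (0.75) lie to the right of 0, 2 of the 3 Il1r1 probe sets lie to the left (-0.54 and -0.37), and the other intervals include 0.

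The receptor gene Il1r1 was lower by its brightest probe set. The values were 9.84, 9.89, 10.17, 9.96 and 9.99 with vehicle and 9.12, 9.85, 9.37, 9.35 and 9.47 after DMPT. In 4 of 5 DMPT arrays the value was below all vehicle arrays, and DMPT replicate 2 overlapped them. The difference was -0.54 ± 0.13 (95% interval -0.82 to -0.25), or 1.45-fold lower, with an adjusted p of 0.0218. A second probe set moved alike, by -0.37 ± 0.11 (adjusted p = 0.0482), and its groups did not overlap. The third probe set differed by -0.17 ± 0.29 (adjusted p = 0.784). There vehicle replicate 2 was at 7.92 and the other vehicle arrays between 8.99 and 9.54, and without it the difference was -0.45 (adjusted p = 0.12). The call of Il1r1 rested on few arrays: it was lost without DMPT replicate 3 (adjusted p = 0.0566) or DMPT replicate 4 (0.0557), with differences between -0.64 and -0.46 over the omissions. It was also lost when that RNA quality measure was a covariate (-0.46, adjusted p = 0.0999) and with the mean over its probe sets (-0.36, adjusted p = 0.144). The second probe set lost its call without any 1 of 7 arrays, namely vehicle replicates 1, 3, 4 and 5 and DMPT replicates 3, 4 and 5. It also lost it with centring (adjusted p = 0.0903), cyclic loess (0.0966), a replicate block (0.0901), another variance model (0.0669) and the RNA covariate (0.125).

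The other receptor genes did not pass. The accessory chain gene Il1rap had values of 8.09, 8.65, 8.15, 8.07 and 8.51 with vehicle and 8.29, 8.67, 8.43, 8.37 and 8.44 after DMPT. The ranges overlapped, with a difference of 0.15 ± 0.13 (95% interval -0.14 to 0.44; adjusted p = 0.564), and its other probe set differed by -0.09 ± 0.12. The decoy receptor gene Il1r2 was dim, brighter than 8.74% of probe sets, with values of 4.46 to 5.34 with vehicle and 4.51 to 5.07 after DMPT. Its difference was -0.25 ± 0.17 (adjusted p = 0.41). Il1rl1, the interleukin 33 receptor gene, was also dim, brighter than 24.1% of probe sets. Its values were 6.22 to 6.43 with vehicle and 6.19 to 6.78 after DMPT, and the difference was 0.13 ± 0.12 (adjusted p = 0.54).

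Whether members changed unequally was tested on the log2 difference of 2 members within each array, compared between groups by a two-sided exact permutation test over every labeling of the arrays. There were 7 pairs, and 0.00794 is the smallest p this design can give. The antagonist rose more than each of the 4 agonists. The excess of Il1rn over Il1b was 1.95, over Il33 1.82, over Il1a 1.80 and over Il18 1.01. In each of these 4 pairs all 5 DMPT arrays were above all vehicle arrays, with an exact p of 0.00794 and 0.0111 after adjustment over the 7 pairs. The 4 tests share Il1rn and are not separate evidence, and the Il1a pair compares with a gene near background.

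For the receptors, Il1rap exceeded Il1r1 in change by 0.68 (exact p = 0.00794, adjusted 0.0111), with 5 of 5 DMPT arrays above all vehicle arrays. With the mean over each gene's probe sets that excess was 0.39 and did not pass (adjusted exact p = 0.0667). The pair of the decoy Il1r2 with Il1r1 had an excess of 0.28 and did not pass (exact p = 0.222, adjusted 0.259), and that of Il1rl1 with its ligand gene Il33 had 0.19 (exact p = 0.262, adjusted 0.262). Il1r2 and Il1rl1 were dim, so these results do not show that the genes of a pair changed alike.

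**Figure D3:**
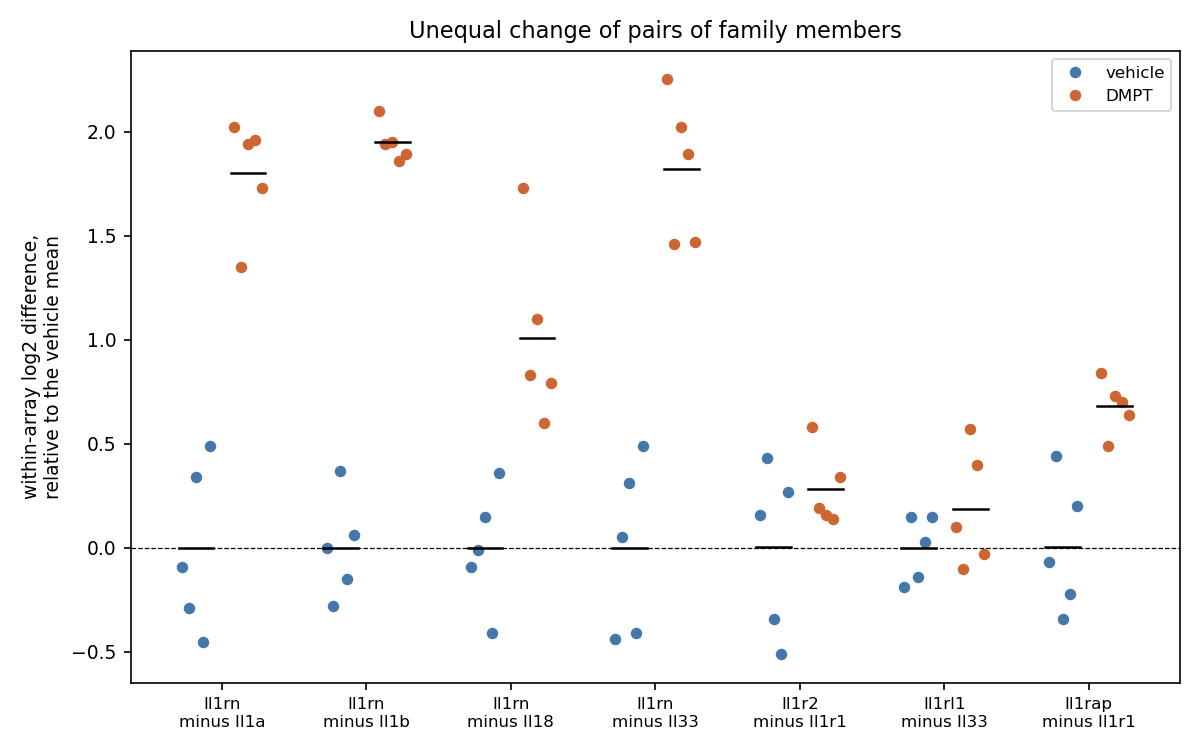
Within-array log2 difference between 2 members, set to 0 at the vehicle mean (vertical axis), for 7 pairs; points are arrays and bars are group means. The DMPT arrays lie between 0.60 and 2.25 for the 4 pairs of Il1rn with an agonist, above the highest vehicle values of 0.36 to 0.49, and the groups overlap for Il1r2 minus Il1r1 and Il1rl1 minus Il33.

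Of 12 further ligands, receptors and binding proteins of the family, 5 were measured and 0 were called, also 0 at an unadjusted p under 0.05. The binding protein gene Il18bp, whose product neutralises interleukin 18, differed by -0.08 ± 0.12 (adjusted p = 0.77). Sigirr, an inhibitory receptor of the family, differed by -0.17 ± 0.11 (adjusted p = 0.374), and Il1rl2, the receptor for interleukin 36, by -0.25 ± 0.18 (adjusted p = 0.452). The interleukin 36 antagonist gene Il36rn had a difference of -0.0029, whose sign turned when the arrays were centred on one median or scaled by cyclic loess. The panel genes Il36g and Il18r1 had no probe set with a single symbol.

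Among 23 measured genes of signalling below the receptors, Irak3 rose and 0 fell. Irak3 encodes a kinase relative without full kinase activity that restrains signalling by IRAK kinases. Its values were 9.14, 9.25, 8.91, 9.01 and 9.09 with vehicle and 10.23, 9.85, 10.60, 10.39 and 10.82 after DMPT. All DMPT arrays were above all vehicle arrays, with a difference of 1.30 ± 0.16, or 2.46-fold (adjusted p = 0.000495). The activating parts of the same complex did not pass: the adaptor gene Myd88 differed by 0.22 ± 0.14 (adjusted p = 0.394), Irak1 by 0.08 ± 0.07, Irak2 by -0.05 ± 0.10, Irak4 by 0.30 ± 0.19 and Traf6, the ubiquitin ligase gene, by 0.16 ± 0.18. The list had 4.35% of its genes called, below the 13.9% of all genes.

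Of 12 measured genes that process or release the ligands, 1 rose and 0 fell, 8.33% of the list against 13.9% of all genes. By limma, 5 of the 12 had an unadjusted p under 0.05, among them Casp4 (-0.35), P2rx7 (-0.44) and Capn1 (0.30), which were not called. The share of all genes at that unadjusted cut was not worked out, so whether 5 is many cannot be said. For Casp4 all 5 DMPT arrays were below all vehicle arrays, and 13.9% of all genes had groups that did not overlap in either direction. The riser was Panx1, a membrane channel gene, at 0.48 ± 0.12 (adjusted p = 0.0246), a call that was lost without vehicle replicate 4, DMPT replicate 2 or DMPT replicate 3. The inflammasome protease gene Casp1, whose product cuts the precursors of interleukin 1 beta and 18, differed by -0.28 ± 0.22 (adjusted p = 0.484). Its adaptor gene Pycard differed by -0.04 ± 0.12 and the pore-forming Gsdmd by -0.26 ± 0.11 (adjusted p = 0.177). The sensor gene Nlrp3 had no probe set with a single symbol. These are transcript levels, and the cutting of the ligands was not measured.

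Of 30 genes that interleukin 1 is known to induce, 1 was higher and 3 were lower, 13.3% of the list against 13.9% of all genes, with a median difference of 0.05. The chemokine gene Ccl20 had values of 9.82 to 10.06 with vehicle and 7.07 to 8.85 after DMPT, without overlap, a difference of -1.57 ± 0.28 (adjusted p = 0.0045). The adhesion molecule genes Vcam1 and Icam1 fell by 1.16 ± 0.26 (adjusted p = 0.0154) and 0.48 ± 0.14 (adjusted p = 0.0487). Tnf, another inflammatory cytokine gene, was the higher member, at 0.59 ± 0.17 (adjusted p = 0.0416). The call of Tnf was lost without any 1 of 8 arrays (all but vehicle replicates 2 and 3), and that of Icam1 without any 1 of 7 (all but vehicle replicates 2 and 4 and DMPT replicate 5). Tnf also did not pass with the RNA covariate (adjusted p = 0.0802) or as the mean over its probe sets (0.49, adjusted p = 0.223), nor Icam1 with the arrays centred on one median (adjusted p = 0.0762) or scaled by cyclic loess (0.0677). The NF-kappaB inhibitor gene Nfkbia differed by -0.10 ± 0.10 (adjusted p = 0.623), and Tnfaip3, which encodes another brake on NF-kappaB, by -0.37 ± 0.31 (adjusted p = 0.525). The latter was -0.12 without vehicle replicate 2, -0.63 without vehicle replicate 4 and -0.045 with the RNA covariate, and it passed in none of these. Ptgs2, the inducible cyclooxygenase gene, differed by 0.34 ± 0.20 (adjusted p = 0.347); with vehicle replicate 3 left out it was 0.54 and passed (adjusted p = 0.032). Cxcl1, Cxcl2 and Il6 were dim and did not pass, with differences of -0.47, -0.35 and 0.09. Vehicle replicate 2 was the highest array for Cxcl1 (8.22) and Cxcl2 (5.93), and without it their differences were 0.059 and -0.011.

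Interleukin 33 acts on type 2 responses, and 8 genes linked to them were measured. They included cytokines, receptors, the transcription factor gene Gata3 and Areg. Only Areg was called, and it rose. That is 12.5% of the list, against 13.9% of all genes. Areg, which encodes a growth factor ligand of the epidermal growth factor receptor, had values of 4.49 to 5.22 with vehicle and 5.99 to 7.22 after DMPT, without overlap. Its difference was 1.92 ± 0.23 (adjusted p = 0.000349). It was dim with vehicle, so the size of the rise is uncertain. The epithelial cytokine gene Tslp differed by -0.29 ± 0.20 (adjusted p = 0.438).

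**Figure D4:**
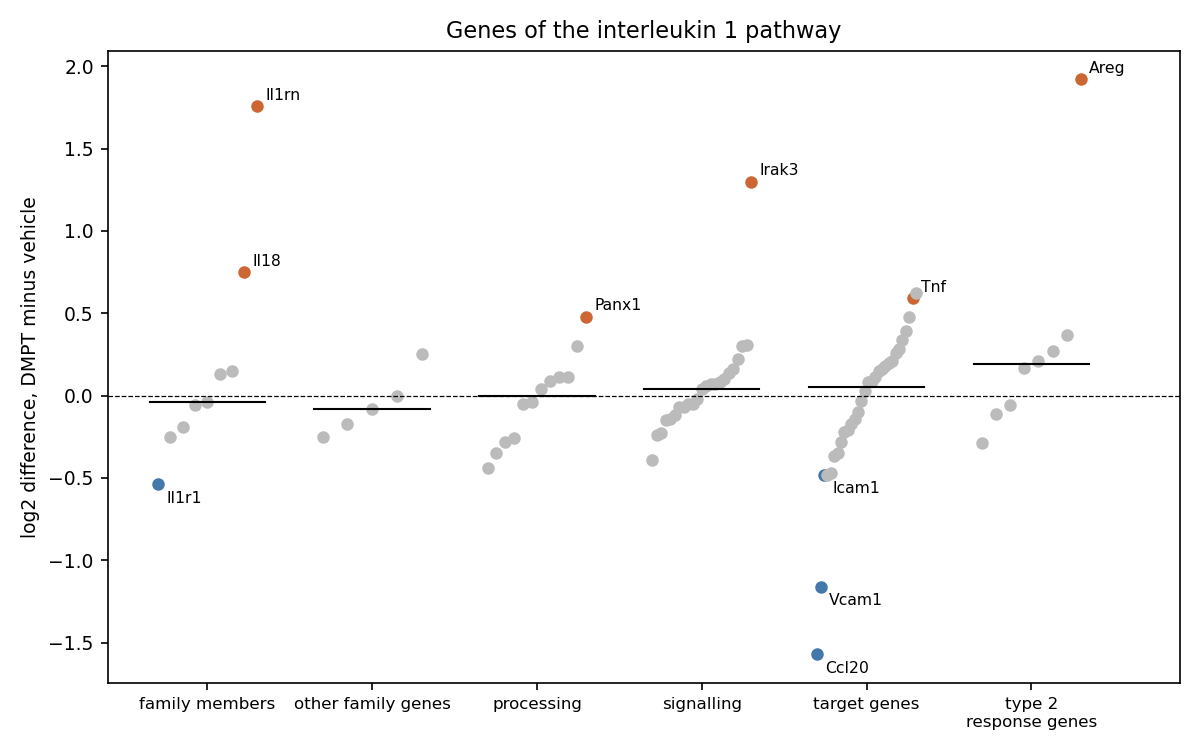
Log2 difference, DMPT minus vehicle (vertical axis), of each measured gene in the family and in 5 lists of pathway genes; points in colour and named are called, grey points are not, and bars are list medians. Called genes are Il1rn, Il18 and Il1r1 in the family, Panx1, Irak3 and Areg as the single called genes of their lists, and Tnf, Icam1, Vcam1 and Ccl20 among the targets.

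Marker lists of some cell types also differed between the groups. Among 12 macrophage markers, 6 were higher and Lyz2 was lower, 58.3% called against 13.9% of all genes. The list's mean log2 level was 8.98 to 9.13 with vehicle and 9.27 to 9.57 after DMPT, without overlap. The scavenger protein gene Cd68 rose by 0.87 ± 0.16, the complement genes C1qa, C1qb and C1qc by 0.59 to 0.72, and the mannose receptor gene Mrc1 by 1.37 ± 0.38. Cd14 rose by 0.43 ± 0.08, and Lyz2 differed by -0.38 ± 0.11. The other 5 were not called: Csf1r (0.16), Cd163 (0.26), Adgre1 (-0.05), Aif1 (0.06) and Ms4a7 (0.34). Macrophages can express Il1rn, Il18 and Irak3, and their part in these rises was not tested. Among 10 measured basal and squamous markers 5 were higher and 0 lower (50% called). The higher ones were Sprr1a (4.81), Krt4 (3.09), Ngfr (1.96), Sfn (1.22) and Krt5 (0.60). Krt14 (0.10), Krt15 (0.14), Krt13 (0.52), Ivl (0.01) and Tgm1 (0.38) were not called. The list's mean levels were 8.92 to 9.06 with vehicle and 10.05 to 10.67 after DMPT. Squamous cells also express Il1rn and Il18, and their part was not tested.

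Among 9 measured endothelial markers 5 were higher and 0 lower, 55.6% called against 13.9% of all genes. The list's mean levels were 6.27 to 7.41 with vehicle and 7.24 to 8.51 after DMPT. Their ranges overlapped. All 8 measured neutrophil markers lay below the median brightness of probe sets, with mean levels of 5.24 to 5.85 with vehicle and 5.36 to 5.79 after DMPT. Mmp8 alone of these was called, and it rose (12.5% of the list). Of 8 mast cell and basophil markers 0 were called by limma, with 1 at an unadjusted p under 0.05, and 7 lay below that median; the mast cell protease gene Cpa3 was brighter than 7.98% of probe sets. Of 11 lymphoid markers Cd37 fell (9.09% called), and their mean levels were 7.62 to 7.94 and 7.53 to 7.92. The 9 fibroblast markers had 0 called, with 1 at an unadjusted p under 0.05, and mean levels of 9.17 to 10.01 and 9.15 to 10.12. Of 10 markers of transitional and respiratory epithelium, Krt8 rose and Foxj1, Tff3, Pigr and Aqp5 fell (50% called). Epcam (-0.07), Cdh1 (0.00), Krt18 (0.04), Krt19 (0.25) and Scgb1a1 (0.10) were not called. The list's median difference was -0.03, with 5 genes above 0 and 5 below.

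**Figure D5:**
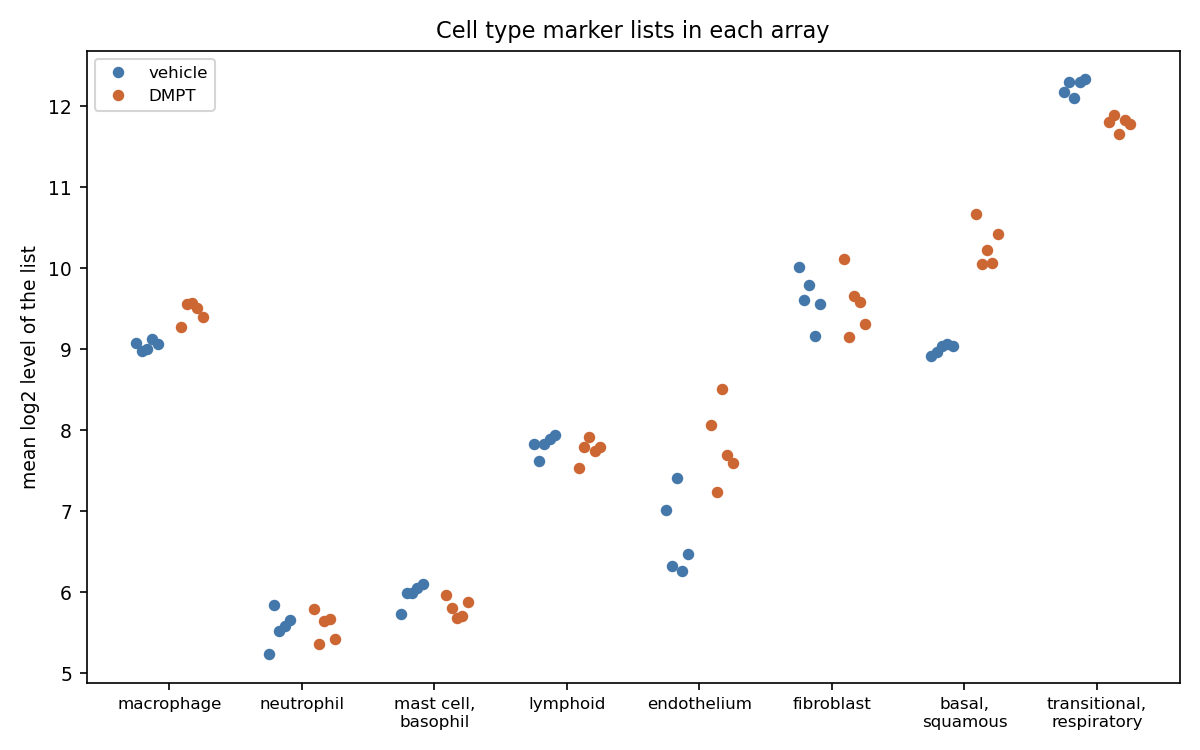
Mean log2 level of 8 lists of cell type markers (vertical axis) in each array, vehicle and DMPT side by side. The DMPT arrays lie above all vehicle arrays for the macrophage list (9.27 to 9.57 against 8.98 to 9.13) and the basal and squamous list (10.05 to 10.67 against 8.92 to 9.06), and below them for the transitional and respiratory list (11.66 to 11.89 against 12.10 to 12.33). In that last list 5 genes had a difference above 0 and 5 below, with a median of -0.03.

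The genes whose values followed the called members most closely over the 10 arrays were found by Pearson correlation, as a description in which the separation of the groups is shared by all points. For Il1rn they were Phlda3, a gene induced by p53 (r = 0.983), Calcb, which encodes a peptide of the calcitonin family (0.983) and Entpd5, a nucleotidase gene of the endoplasmic reticulum (0.981). With group means removed, these correlations were 0.802, 0.801 and 0.785. The genes were picked by r over the same arrays, so these high values are partly built in and are no separate support. For Il18 the closest genes were Fam220a (0.978), Thrsp (0.968) and the midkine growth factor gene Mdk (0.955), of which Mdk rose by 1.43 ± 0.17. Group means removed, r was 0.905, 0.863 and 0.784. For Il1r1 the closest were Prr5l (0.969), the acyl-CoA synthetase gene Acsl5 (0.955) and Tmem106c (0.954). Prr5l fell by 0.61 ± 0.15, and Acsl5 and Tmem106c did not pass. Group means removed, r was 0.906, 0.904 and 0.906.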

How the data were processed

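Per probe set of a rat array the authors deposited 1 log2 value per animal, made with RMA (robust multi-array average: background correction, equalised distributions, probe summary) per the submitters' processing notes. The sources used here give neither software version nor genome build. Of 31099 probe sets, 57 controls were set aside; 20826 of the rest had 1 symbol, 436 several and 9780 none. The number of arrays limits the precision.

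The comparison used limma 3.58.1 (lmFit, eBayes, two-sided; R 4.3.3) on all 31042 probe sets, with Benjamini-Hochberg adjustment and a threshold of 0.05; it was tested on simulated data. The authors' ORIOGEN software was not run. Values after ± are standard errors unless marked SD. Members, gene lists and pairs were chosen with earlier results of these data known. Named genes were the 9 members and up to 6 called genes of each of 5 pathway lists. A panel of 25 (22 measured) and 3 correlated genes per called member were also named. Marker, processing and panel genes outside these were named after their values were seen. The labels do not say which animals shared cages. Same-numbered arrays did not pair: correlations of their deviations ran from -0.0672 to 0.234. Alternatives were omission of each array, 2 scalings, a filter on dim probe sets, a replicate block, another variance model, array weights, an RNA quality covariate and the mean over probe sets. Upstream sequences are RefSeq's.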

Additional observations from a re-analysis of the deposited data

Results flagged for a closer look

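In groups of 5 arrays, the extreme value was taken as standing apart where its gap to the next exceeded Dixon's critical share of the group's range at the 95% level. Chance gives about 1 in 20 groups, and 7 values met this among 82 groups. Of the family, they were both in the dimmer Il1rl1 probe set: vehicle replicate 5 at 4.52 and DMPT replicate 2 at 4.60, where the other arrays lay between 5.00 and 5.21. Ccl20 was 7.07 in DMPT replicate 5, the lowest of its group, and without that array its difference was -1.26 (adjusted p = 0.000174). Ptgs2 was 8.31 in vehicle replicate 3. Sigirr was 10.96 in DMPT replicate 4, Il6 was 3.46 in DMPT replicate 4 and Traf6 was 10.59 in vehicle replicate 2.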

How the results depend on the processing

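The rises of Il1rn and Il18 kept their direction and passed under every alternative run. The number of lower members was 0 with the RNA quality covariate and with the mean over probe sets, and 0 to 1 without each array in turn; Il1r1 is the member concerned. Over the pathway lists, 4 genes were higher and 3 lower; without each array in turn the counts were 2 to 5 and 2 to 3, with 2 higher without vehicle replicate 4, DMPT replicate 2 or DMPT replicate 3. Array weights gave 6 higher and 4 lower, and the RNA covariate 3 and 4. With the replicate number as a block, the pair differences were 1.80, 1.95, 1.01 and 1.82 for Il1rn against Il1a, Il1b, Il18 and Il33 and 0.68 for Il1rap against Il1r1, each at the smallest exact p that 32 sign patterns allow, 0.0625 (adjusted 0.0875). That design cannot pass the threshold. In limma the block ended the call of the second Il1r1 probe set (adjusted p = 0.0901) and of no other named gene. The mean over probe sets gave 0.39 for Il1rap against Il1r1.

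Signs turned only for differences that did not pass. Il36rn was 0.037 with centring, 0.027 with loess, 0.036 with array weights and -0.085 to 0.078 without single arrays. With array weights Pycard was 0.041. With the RNA covariate, Pycard was 0.076, Il1a 0.0025, Cxcl1 0.11, Cxcl2 0.089 and Traf6 -0.11. Without single arrays, Pycard ran from -0.1 to 0.042, Cxcl1 from -0.73 to 0.059, Traf6 from -0.027 to 0.23, Il18bp from -0.13 to 0.023 and the dimmer Il1rl1 probe set from -0.083 to 0.14. Without the dimmest 25% of probe sets, the members Il1a, Il1r2 and Il1rl1 were not tested. The dimness of these genes limits what the arrays can show of them.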

Other observations

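Within the DMPT group, Il1rn and Il1b kept the same order at both ends: DMPT replicate 1 was highest for each (10.32 and 7.65) and DMPT replicate 2 lowest (9.59 and 7.08). The SD of their within-array difference was 0.09 over the 5 DMPT arrays, against 0.28 for Il1rn and 0.23 for Il1b alone. With vehicle the pair was not tighter than Il1b: the SD of the difference was 0.25, against 0.34 for Il1rn and 0.22 for Il1b. Il1r1 ran the other way, lowest in DMPT replicate 1 (9.12) and highest in DMPT replicate 2 (9.85). Il18 was lowest in DMPT replicate 1 (10.23) and highest in DMPT replicate 4 (10.97). These are values of 5 arrays, seen after the fact and not tested.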
